A study of Mus musculus with 2 samples.

Results

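The cells described here were CD8 T cells with Tcf7 transcript in the spleen of mice treated with a monoclonal antibody against IL-2 after a haematopoietic cell transplant. They were chosen from the anti-IL-2 library as cells with at least 200 of the 2000 deposited genes detected, with Cd8b1 detected, Cd4 not detected and Tcf7 detected. A value above 0.7 on the deposited natural log scale was read as detected. There were 175 such cells. They made up 22.5% of the 778 CD8 cells that passed the same gate in that library (exact 95% binomial interval 19.6 to 25.6%), and the whole series held 3239 cells. The other 603 CD8 cells, with Tcf7 at or below 0.7, were the comparison.

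Anti-IL-2 and tacrolimus were the treatments of the study, each given from day 0 to day 6 to lethally irradiated WT BALB/C recipients of spleen and bone marrow cells from WT C57BL/6 donors. Spleen cells were taken on day 6, and there was 1 library per treatment, which leaves every difference below without a replicate check or a p-value. The number of mice behind a library was not given in the sources used here. Intervals are exact 95% binomial intervals, and they cover counting error only.

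Tcf7 encodes TCF-1, a transcription factor of T-cell development that naive, memory and self-renewing CD8 T cells keep and that terminally differentiated effector cells silence. In chronic infection and cancer, TCF-1-positive cells that carry PD-1 form a precursor pool from which exhausted effector-like cells arise. IL-2 acts through STAT5 and drives effector differentiation of activated CD8 cells, and in transplantation donor T cells that respond to the recipient's antigens cause graft-versus-host disease.

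Tcf7 itself, by which the cells were chosen, ran from 0.716 through a median of 1.43 to 3.23 in Tcf7-positive cells, against -2.42, -0.0587 and 0.695 in Tcf7-negative cells. The 3 cells just inside the threshold had Tcf7 at 0.716, 0.723 and 0.733, and the 3 just outside it were at 0.695, 0.693 and 0.686. Between 0.7 and 0.9 lay 16 cells, and between 0.5 and 0.7 lay 22, so the boundary was not empty. Cd8b1, which encodes the CD8 beta chain, ran from 1.67 through 3.67 to 5.07 in Tcf7-positive cells and from 0.760 through 3.97 to 5.71 in Tcf7-negative cells. Thus every Tcf7-positive cell was far above the CD8 threshold, and Cd8a, the other CD8 chain, was detected in 157 of them. Cd4 was nearer its threshold, as 54 of the 175 Tcf7-positive cells and 23 of the 603 Tcf7-negative cells had a Cd4 value above 0.3. The median number of genes detected was 347 in Tcf7-positive cells (200 to 673) and 394 in Tcf7-negative cells (204 to 801).

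**Figure D1:**
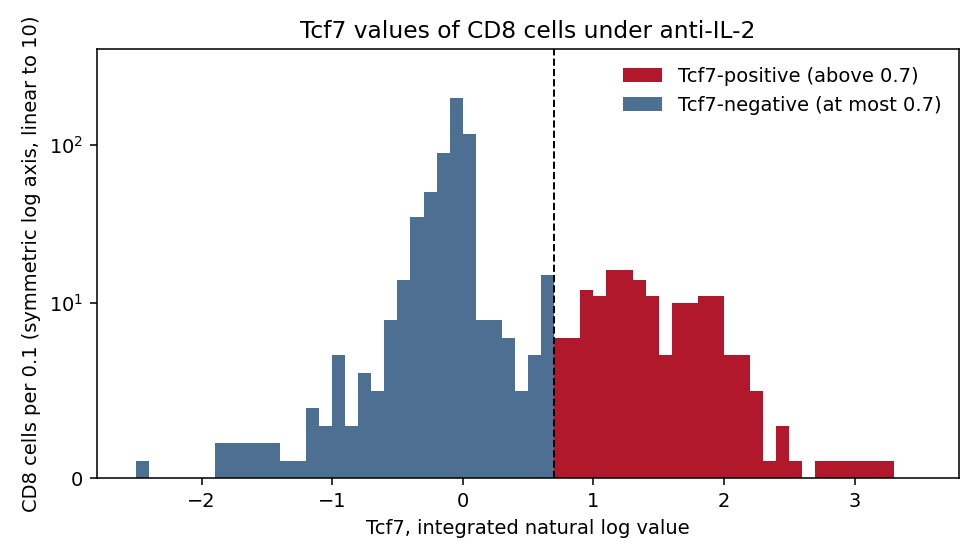
Tcf7 values (integrated natural log scale, x axis) of the 778 CD8 cells under anti-IL-2, as cells per 0.1 (y axis, symmetric log, linear to 10), with Tcf7-positive cells in red and Tcf7-negative cells in blue. The dashed line is the threshold of 0.7. The blue cells peak near 0, and 22 of them lie between 0.5 and 0.7.

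The anti-IL-2 values had been batch-integrated with the other library before deposit, which shifts them: 13.9% of them were below 0. When an estimated shift was removed, 189 CD8 cells were Tcf7-positive, of which 158 were among the 175. Of the 97 genes called higher below, 88 were called higher again, and of the 168 called lower, 152 were called lower again. The deposited anti-IL-2 values are not counts, so the sequencing depth of a cell is unknown here and the number of genes detected stands in for it.

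A gene was compared when at least 5% of either set of CD8 cells had it, and it was called when its share of cells differed by 1.5 times or more. Of 935 genes compared, 97 were called higher in Tcf7-positive cells (10.4%) and 168 were called lower (18.0%). The 95% intervals were apart for 54 and 106 of them. Genes were detected somewhat less often in Tcf7-positive cells in general, with a median log2 ratio of shares of -0.10 over all genes compared. When Tcf7-negative cells were weighted to the same numbers of genes detected, 93 of the 97 higher calls held, but 83 of the 168 lower calls. Many lower calls were thus lost with this weighting. The weighting raised the median log2 ratio over all genes to -0.01, so it could remove few higher calls. With a minimum of 300 genes per cell, 85 of the 97 higher calls and 94 of the 168 lower calls held. Within Mki67-positive cells, 81 higher and 75 lower calls held. With CD8 cells limited to a Cd4 value of 0.3 or less, 78 higher and 71 lower calls held. Lower calls were thus also lost in choices other than those on genes detected, and the cause was not tested.

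**Figure D2:**
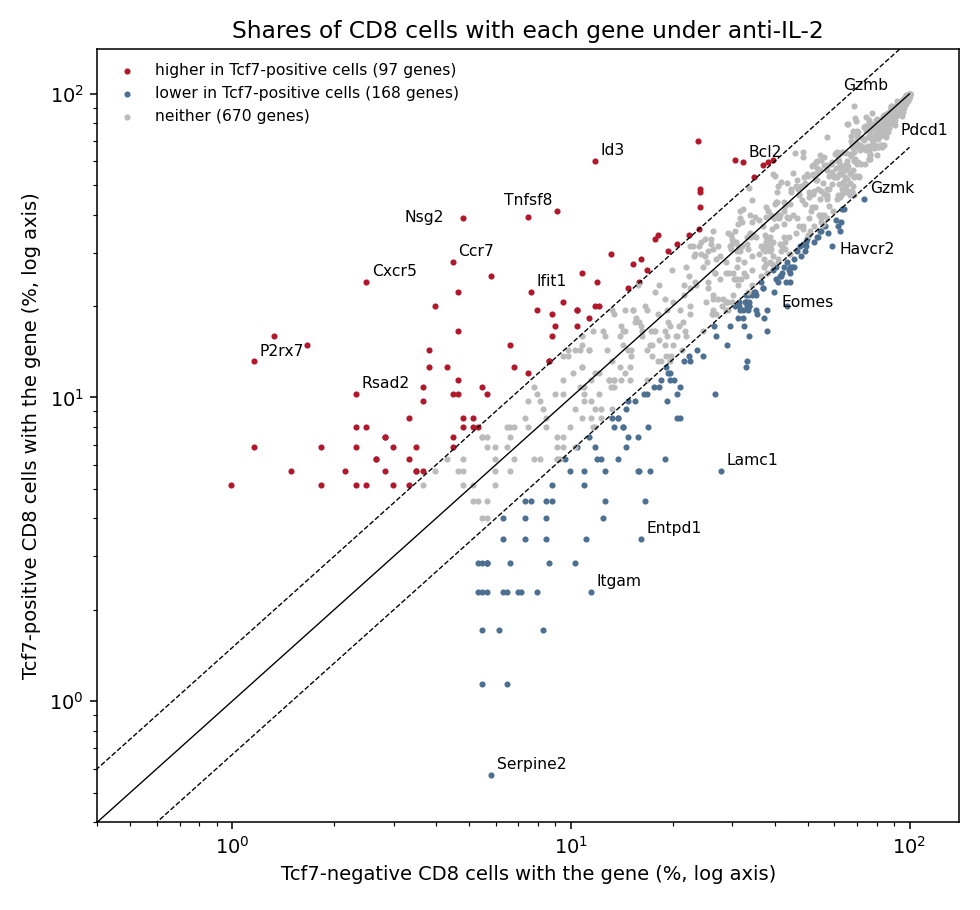
Share of Tcf7-positive CD8 cells (y axis, %, log) against share of Tcf7-negative CD8 cells (x axis, %, log) with each of the 935 genes compared under anti-IL-2. The solid line marks equal shares and the dashed lines a 1.5-fold difference. Id3, Nsg2, Cxcr5 and P2rx7 stand far above the line, Lamc1, Entpd1 and Serpine2 far below it, and Gzmb and Pdcd1 lie on it at high shares.

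Genes of naive and memory T cells were more frequent in Tcf7-positive cells. Of 12 measured genes of this list other than Tcf7, 11 could be compared, of which 7 were called higher and 0 lower. Over all genes compared, 10.4% were called higher and 18.0% lower. The median log2 ratio of the list was 1.78, against -0.10 over all genes. Id3, a transcriptional regulator kept by long-lived CD8 cells, was detected in 60.0% of Tcf7-positive cells (52.3 to 67.3%) and 11.8% of Tcf7-negative cells (9.31 to 14.6%). Ccr7, the chemokine receptor for entry into the T-cell zones of lymphoid organs, was detected in 28.0% (21.5 to 35.3%) and 4.48% (2.97 to 6.45%). For both genes the intervals were well apart.

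Others of the list moved the same way. Nsg2, a neuronal vesicle gene that naive T cells also transcribe, was detected in 38.9% of Tcf7-positive and 4.81% of Tcf7-negative cells. Dapl1, a gene of naive and precursor CD8 cells, was detected in 22.3% and 4.64%. Il6ra, the IL-6 receptor alpha chain, was detected in 8.0% and 2.32%, and Sostdc1, a secreted BMP antagonist, in 8.0% and 2.49%. Il7r, the IL-7 receptor alpha chain on which naive and memory T cells depend, had 54.3% against 39.5%, short of the 1.5-fold rule although its intervals were apart. Actn1 and Myb were at nearly the same share, with 44.0% and 14.3% of Tcf7-positive cells, against 42.5% and 14.8% of Tcf7-negative cells.

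A Tcf7-positive cell had a median of 3 of the 11 genes, against 1 in a Tcf7-negative cell. At least 4 were detected in 74 of the 175 Tcf7-positive cells (42.3%) and 38 of the 603 Tcf7-negative cells (6.30%). None was detected in 6 Tcf7-positive cells (3.43%) and 136 Tcf7-negative cells (22.6%). Within the Tcf7-positive cells, 105 had Id3, 49 had Ccr7 and 35 had both, which is 20.0% of them against a product of the shares of 16.8%. Id3 and Dapl1 were detected together in 13.1%, against a product of 13.4%, and Id3 and Il7r in 31.4%, against 32.6%. Joint detection of Id3 with these genes was thus close to the product of their shares. Ccr7 and Nsg2 were detected together in 17.7%, against a product of 10.9%.

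**Figure D3:**
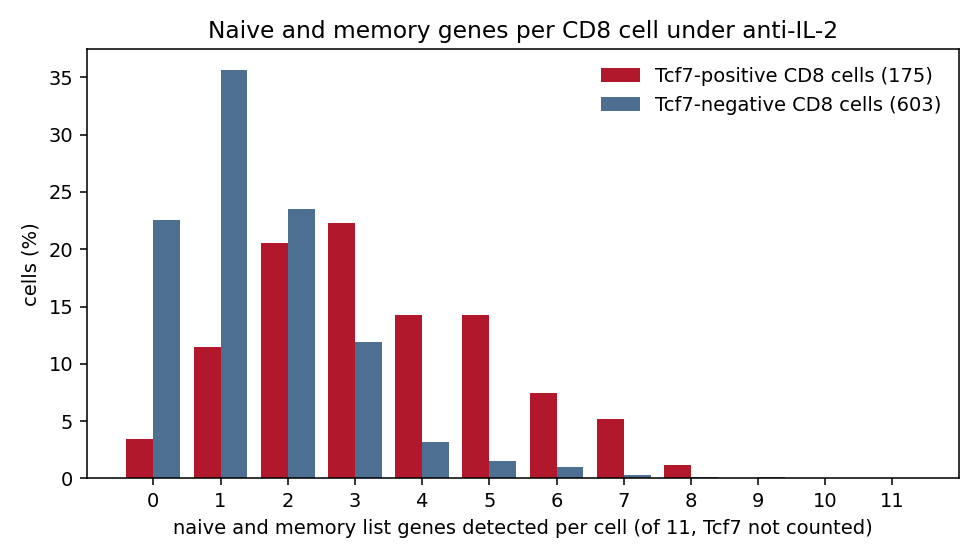
Number of naive and memory list genes detected per cell (x axis, of 11, without Tcf7) against the percentage of cells (y axis) for 175 Tcf7-positive CD8 cells (red) and 603 Tcf7-negative CD8 cells (blue) under anti-IL-2. The red bars are centred on 2 to 5 genes, with a median of 3, and the blue bars on 0 to 2, with a median of 1.

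On the chromosomes (mm10, GENCODE M21), Tcf7 lies at chr11:52252371-52283014 on the minus strand, Id3 at chr4:136143497-136145755 on the plus strand and Ccr7 at chr11:99144196-99155077 on the minus strand. All of these are protein-coding genes at separate loci whose coordinates do not overlap.

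Gzmb and Pdcd1 were detected in most CD8 cells of either kind. Gzmb, which encodes granzyme B, was detected in 98.3% of Tcf7-positive and 99.8% of Tcf7-negative cells. Pdcd1, which encodes the inhibitory receptor PD-1, was detected in 89.7% (84.2 to 93.8%) and 87.9% (85.0 to 90.4%). Both were detected together in 154 of the 175 Tcf7-positive cells (88.0%), and 0 of the 175 lacked both, which allows a share of up to 1.71% (3 counts of the 175). In 61 cells of the same library that carried markers of B, plasma or erythroid cells and no Cd8a, Cd8b1 or Cd4, with a median of 354 genes, Gzmb was detected in 13.1% and Pdcd1 in 0, far below the shares in CD8 cells.

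The list of precursor exhausted cells held 16 measured genes other than Tcf7, of which 15 could be compared. In Tcf7-positive cells 10 of these were called higher and 1 lower, with a median log2 ratio of 0.83. The shares called over all genes were 10.4% higher and 18.0% lower. Cxcr5, the follicle-homing receptor that marks such precursors in chronic infection, was detected in 24.0% of Tcf7-positive (17.9 to 31.0%) and 2.49% of Tcf7-negative cells (1.40 to 4.07%). Tnfsf8, which encodes CD30 ligand, was detected in 39.4% and 7.46%. P2rx7, a receptor for extracellular ATP, was detected in 13.1% and 1.16%. Xcl1, a chemokine that attracts cross-presenting dendritic cells, was detected in 25.7% and 10.8%. Ikzf2, the transcription factor Helios, was detected in 28.6% and 16.1%, and Cd200, an inhibitory ligand, in 30.3% and 19.4%. Tox2, Izumo1r and Cxcl10 were called higher with overlapping intervals, and Id3, given above, completes the 10. Tox, the transcription factor that programmes exhaustion, was detected in 58.3% of Tcf7-positive and 51.9% of Tcf7-negative cells and was not called. Eomes, a T-box factor of effector and later exhausted cells, was detected in 22.3% and 39.8%.

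Several of these genes were as frequent in CD4 cells of the same library, and Cd4 values lay nearer the threshold in Tcf7-positive cells. Among 304 CD4 cells, Cxcr5 was detected in 28.9%, Nsg2 in 46.1%, Tnfsf8 in 48.7% and P2rx7 in 14.8%, whereas Xcl1 was detected in 0.329%, Ccr6 in 2.63% and Dapl1 in 6.25%. Tcf7 was detected in 61.8% of these CD4 cells. Their median number of genes detected was 281, against 347 in Tcf7-positive CD8 cells. Of the naive and memory list, Ccr7 was detected in 27.0% of these CD4 cells, Id3 in 44.4% and Il7r in 64.8%. With CD8 cells limited to a Cd4 value of 0.3 or less, 121 Tcf7-positive and 580 Tcf7-negative cells remained. Cxcr5 was then detected in 20.7% of Tcf7-positive and 1.55% of Tcf7-negative cells, P2rx7 in 9.09% and 0.862%, Nsg2 in 32.2% and 3.97%, and Id3 in 52.1% and 9.83%. These ratios were as large as, or close to, those without the limit. Ikzf2 was no longer called, with 21.5% and 15%. Of the naive and memory list, 7 genes were called higher with this limit, and of the precursor list 8. Over all 932 genes compared with this limit, 92 were called higher and 79 lower.

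The integrated values of these genes spread both ways around 0 in Tcf7-positive cells. A value under -0.3 was found for Id3 in 39 of the 175 Tcf7-positive and 60 of the 603 Tcf7-negative cells, for Ccr7 in 30 and 25, and for Cxcr5 in 25 and 16. For some genes more Tcf7-positive cells lay under -0.3 than were read as detected: Ccr6 (56 under, 35 detected), Dapl1 (56 and 39), Gm14085 (42 and 28) and Tnfrsf25 (57 and 44). Their mean differences were small, at 0.076 for Ccr6, 0.19 for Dapl1, 0.095 for Gm14085 and 0.10 for Tnfrsf25, against 0.73 for Id3. With the estimated shift removed, Ccr6 was detected in 27.0% of Tcf7-positive and 4.99% of Tcf7-negative cells, Dapl1 in 22.2% and 5.49%, and Gm14085 in 21.7% and 1.83%. Beyond this estimate, the part of integration in these shares was not tested.

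**Figure D4:**
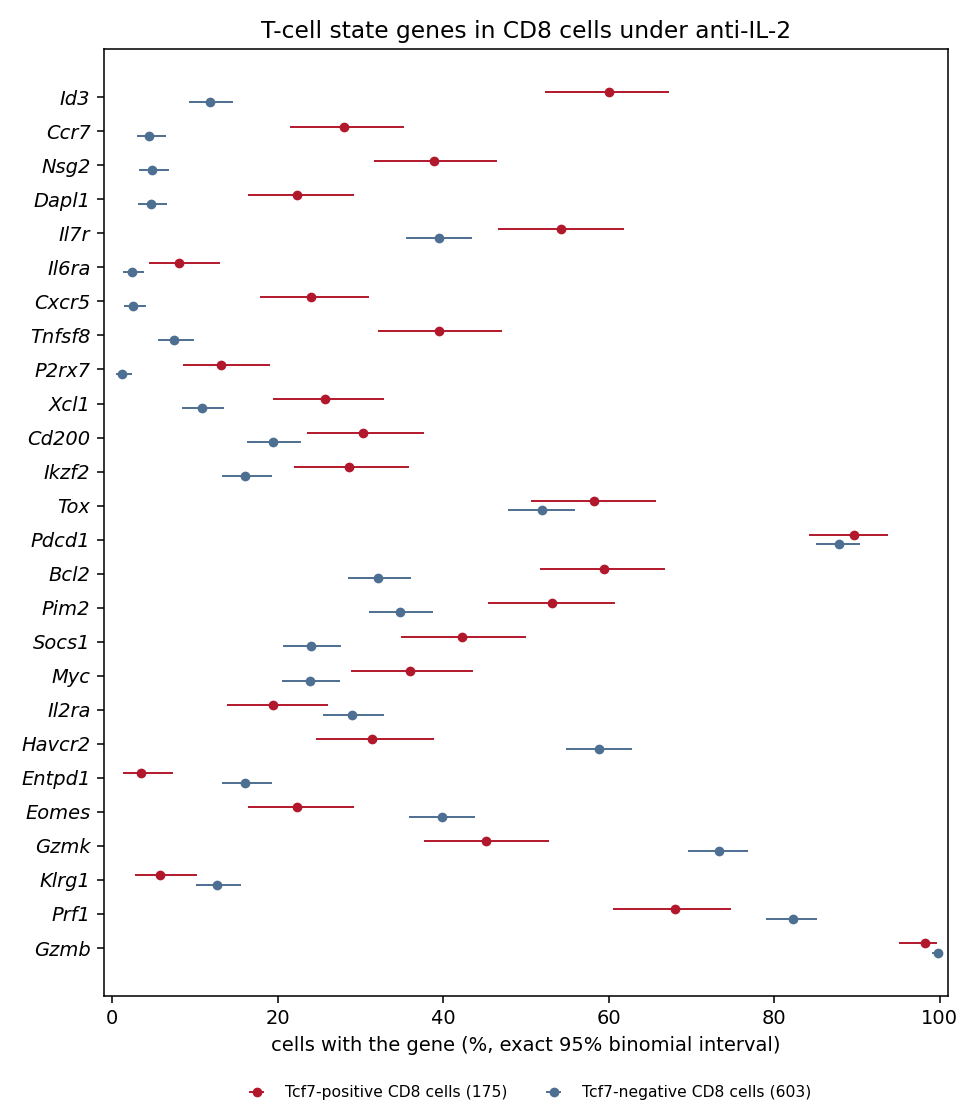
Percentage of cells (x axis) in which T-cell state genes (rows) were detected in 175 Tcf7-positive CD8 cells (red, upper of each pair) and 603 Tcf7-negative CD8 cells (blue, lower) under anti-IL-2. Points are shares and lines exact 95% binomial intervals. Naive, memory and precursor genes from Id3 to Ikzf2 stand to the right in red, Havcr2, Entpd1, Eomes and Gzmk stand to the right in blue, and Tox and Pdcd1 overlap.

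Of 9 inhibitory receptors and related genes compared, 2 were called higher, 2 lower and 5 neither, beside 10.4% called higher and 18.0% called lower over all genes. Havcr2, which encodes TIM-3, an inhibitory receptor of terminally exhausted cells, was detected in 31.4% of Tcf7-positive (24.6 to 38.9%) and 58.9% of Tcf7-negative cells (54.8 to 62.8%). Entpd1, which encodes the ectoenzyme CD39, was detected in 3.43% (1.27 to 7.31%) and 16.1% (13.2 to 19.3%). Lag3 and Ctla4 were detected in 80.0% and 64.0% of Tcf7-positive cells, and in 88.6% and 65.0% of Tcf7-negative cells. The 2 called higher were Cd200 and Tox2, whose ratios of 1.56 and 1.55 were just past the rule. With the Cd4 limit, Havcr2 was detected in 40.5% of Tcf7-positive and 60.0% of Tcf7-negative cells and missed the rule, and Entpd1 remained called lower with 4.96% and 16.6%.

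Cytotoxic genes were detected in most cells of both kinds but at lower values in Tcf7-positive cells. Of 16 compared, 0 were called higher and 4 lower by share (Gzmk, Gzmc, Klrg1 and Cx3cr1), not far from the 18.0% called lower over all genes, and intervals were apart for 1 of the 4. By share, 12 of the 16 could not have been called higher, because over 66.7% of Tcf7-negative cells already had them. For those the difference of the mean natural log value was used. Gzmb averaged 3.36 ± 1.33 in Tcf7-positive and 4.94 ± 1.08 in Tcf7-negative cells (SD over cells), a difference of -1.58. Gzma, another granzyme, averaged 2.88 ± 1.55 and 4.10 ± 1.87, a difference of -1.21. Prf1, the pore-forming perforin, averaged 1.23 ± 0.89 and 2.01 ± 1.09, a difference of -0.77, and Ccl5, a chemokine of effector CD8 cells, 1.86 ± 1.51 and 2.92 ± 1.86, a difference of -1.06. The spreads of the cells overlapped for each of these genes. The median difference over the list was -0.43, against -0.05 over all genes compared and -0.15 over all genes too frequent to be called higher.

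By share, Gzmk, a granzyme of early effector and memory cells, was detected in 45.1% of Tcf7-positive and 73.3% of Tcf7-negative cells. Klrg1, an inhibitory receptor of terminal effectors, was detected in 5.71% and 12.6%, with overlapping intervals. With the Cd4 limit, Gzmk was detected in 56.2% and 74.7% and missed the rule. Among genes too frequent to rise 1.5-fold, those with the largest positive differences were Ifi27l2a (2.59 ± 1.60 in Tcf7-positive and 1.70 ± 1.66 in Tcf7-negative cells) and Ltb, which encodes the membrane cytokine lymphotoxin beta (2.23 ± 1.02 and 1.55 ± 1.23).

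Cytokines and chemokines moved in both directions. Of 8 compared, 3 were called higher (Xcl1, Tnfsf8 and Tnf) and 3 lower (Ifng, Ccl3 and Ccl4). The shares called over all genes were 10.4% higher and 18.0% lower. Ifng, the effector cytokine interferon gamma, was detected in 16.0% of Tcf7-positive cells (10.9 to 22.3%) and 33.5% of Tcf7-negative cells (29.7 to 37.4%). Ccl4, an inflammatory chemokine, was detected in 26.9% and 45.1%, and Ccl3, a related chemokine, in 20.6% and 33.0%. Tnf, an inflammatory cytokine, was detected in 9.71% and 3.65%. Homing genes divided too. Ccr6, a receptor for CCL20, joined Ccr7 and Cxcr5 with 20.0% against 3.98%. Itga1, an integrin chain of tissue-resident cells, was detected in 2.29% and 7.13%, and Cx3cr1, the fractalkine receptor, in 8.0% and 14.3%, each with overlapping intervals.

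The list of IL-2 receptor and STAT5 target genes bears on the pathway that the antibody acts on. Of 7 compared, 4 were called higher in Tcf7-positive cells, 1 lower and 2 neither, beside 10.4% called higher and 18.0% called lower over all genes. Bcl2, which encodes an anti-apoptotic protein, was detected in 59.4% of Tcf7-positive (51.8 to 66.8%) and 32.2% of Tcf7-negative cells (28.5 to 36.1%). Socs1, which restrains JAK kinases downstream of cytokine receptors, was detected in 42.3% and 24.0%, Pim2, a survival kinase, in 53.1% and 34.8%, and Myc, a growth regulator, in 36.0% and 23.9%. Bhlhe40, a transcription factor induced by activation, was detected in 36.6% and 61.5%. Il2ra, the high-affinity IL-2 receptor alpha chain, was detected in 19.4% (13.8 to 26.1%) and 29.0% (25.4 to 32.8%), a ratio of 0.669 that just missed the rule. With the shift removed it was detected in 10.1% and 25.1% and was called lower. Among cells with at least 300 genes, only Bcl2 of the 4 was still called higher, and with the Cd4 limit Pim2 (42.1% and 34.5%) and Bhlhe40 (43.0% and 62.6%) missed the rule. In CD4 cells of the same library, Bcl2 was detected in 49.7%, Socs1 in 47.4%, Pim2 in 59.2% and Myc in 22.0%.

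Type I interferon response genes were also more frequent in Tcf7-positive cells: of 20 compared, 14 were called higher and 0 lower, with a median log2 ratio of 0.78, and intervals were apart for 11 of the 14. Over all genes compared, 10.4% were called higher and 18.0% lower. Ifit1, an antiviral protein that binds foreign RNA, was detected in 22.3% of Tcf7-positive (16.4 to 29.2%) and 7.63% of Tcf7-negative cells (5.64 to 10.0%). Ifit3 was detected in 16.6% and 4.64%. Its near-identical copy Ifit3b had 10.9% and 3.65%, and how reads were divided between the copies is not known. Rsad2, the antiviral enzyme viperin, was detected in 10.3% and 2.32%, Oas1a, an RNA sensor, in 33.1% and 17.7%, and Rtp4 in 47.4% and 24.0%. Of the 20 genes, 3 were too frequent in Tcf7-negative cells to be called higher by share. Isg15 and Zbp1 were not called. Isg15, a ubiquitin-like modifier, was detected in 49.7% and 41.0%. With CD8 cells limited to a Cd4 value of 0.3 or less, 10 type I interferon genes were called higher. Over all 932 genes compared with that limit, 92 were called higher. CD4 cells of the same library, of which 61.8% had Tcf7, had shares near those of Tcf7-positive CD8 cells. Ifit1 was detected in 20.1% of them, Ifit3 in 12.8%, Rsad2 in 9.87%, Oas1a in 40.5% and Rtp4 in 53.9%. Of the list of interferon-gamma inducible genes, 3 of 9 compared were called higher (Socs1, Cxcl10 and Gbp5) and 0 lower, and Irf8, an interferon regulatory factor, was detected in 36.6% and 52.2%.

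Promoters of these genes often held a pair of GAAA repeats of the interferon-stimulated response element type. In the 250 bases before the start site (RefSeq, GRCm38.p6), the letters GAAANNGAAA on either strand were found for 10 of 15 measured type I interferon list genes with a promoter in the table and for 8 of the 11 called higher. They were found for 14 of 73 genes called higher (19.2%), 5 of 115 called lower (4.35%), 83 of all 1433 measured genes (5.79%) and 936 of all 27025 promoters (3.46%). The 14 include the 8 of the type I interferon list, so the counts are not separate results. A match describes the letters and is not evidence of binding. The stretches around the matches are shown for 4 genes called higher, read 5′ to 3′ on the gene's strand, with the matches in capitals, where TTTCNNTTTC is the same motif on the opposite strand. Ifit1 is from chr19:34640760-34640838 (plus strand), Ifit3 from chr19:34583348-34583417 (plus), Rsad2 from chr12:26456538-26456597 (minus) and Oas1a from chr5:120907526-120907570 (minus), where 2 matches overlap.
Ifit1: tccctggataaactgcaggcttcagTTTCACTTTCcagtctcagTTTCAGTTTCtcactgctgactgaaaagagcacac
Ifit3: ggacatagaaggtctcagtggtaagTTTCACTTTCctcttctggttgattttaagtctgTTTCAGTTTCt
Rsad2: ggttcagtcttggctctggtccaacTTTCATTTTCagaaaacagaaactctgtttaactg
Oas1a: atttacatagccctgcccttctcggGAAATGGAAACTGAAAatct
The letters CTTTGAT, a core bound by TCF-1 and related factors, were found on either strand in 6 of 73 promoters of genes called higher (8.22%), 4 of 115 of genes called lower (3.48%) and 3.72% of all promoters.

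Cell cycle genes were detected in many Tcf7-positive cells, though less often than in Tcf7-negative cells. Mki67, a protein of proliferating cells, was detected in 53.1% of Tcf7-positive cells (45.5 to 60.7%) and 71.0% of Tcf7-negative cells (67.2 to 74.6%). Over all genes compared, 10.4% were called higher and 18.0% lower. Of 27 cell cycle genes compared, 11 were called lower and 0 higher, among them Cdk1, the kinase that drives mitosis (36.6% and 56.4%), Aurkb, a mitotic kinase (30.3% and 49.3%), and Mcm2, a subunit of the replicative helicase (33.7% and 53.6%). Genes detected moved with this result. With Tcf7-negative cells weighted to the same numbers of genes detected, 0 of the 27 were called lower, and 0 also with a minimum of 300 genes, within Mki67-positive cells, or with the Cd4 limit. Mki67 is itself on the list, and Tcf7-positive cells with Mki67 had more genes detected than those without it. Weighting, the gene minimum and the choice of Mki67-positive cells thus cannot tell cycling apart from genes detected. Of 17 genes of growth under MYC and mTORC1, 16 were not called, but 8 of the 17 were too frequent to be called higher. Slc7a5, an amino acid transporter, was called lower (13.1% and 22.6%). The median log2 ratio of the 17 was 0.004. Of 12 T-cell receptor early genes compared, 11 were not called, and Tnfrsf9, the co-stimulatory receptor 4-1BB, was called lower (41.7% and 63.2%). By share, 2 of the 12 were too frequent to be called higher.

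Mki67 also divided the Tcf7-positive cells. Among the 93 with Mki67, with a median of 434 genes, and the 82 without it, with a median of 288, several genes had intervals apart. Havcr2 was detected in 47.3% of Mki67-positive (36.9 to 57.9%) and 13.4% of Mki67-negative cells (6.89 to 22.7%). Il2ra was detected in 31.2% and 6.10%, Ifng in 25.8% and 4.88%, and Tnfrsf9 in 57.0% and 24.4%. Other genes were more frequent in the Mki67-negative cells, in which fewer genes were detected. Il7r was detected in 38.7% of Mki67-positive (28.8 to 49.4%) and 72.0% of Mki67-negative cells (60.9 to 81.3%), Slfn1, an interferon-inducible growth regulator, in 45.2% and 73.2%, and Rtp4 in 35.5% and 61.0%. Cxcr6, a homing receptor of tissue T cells, was detected in 59.1% and 86.6%. Id3 had 53.8% and 67.1%, Ccr7 24.7% and 31.7%, Tox 61.3% and 54.9%, and Pdcd1 91.4% and 87.8%, with overlapping intervals. With values above 0.5 read as detected, the log2 ratio of Havcr2 was 0.27, and that of Il2ra was 0.62, so the size of both differences depended on the threshold.

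**Figure D5:**
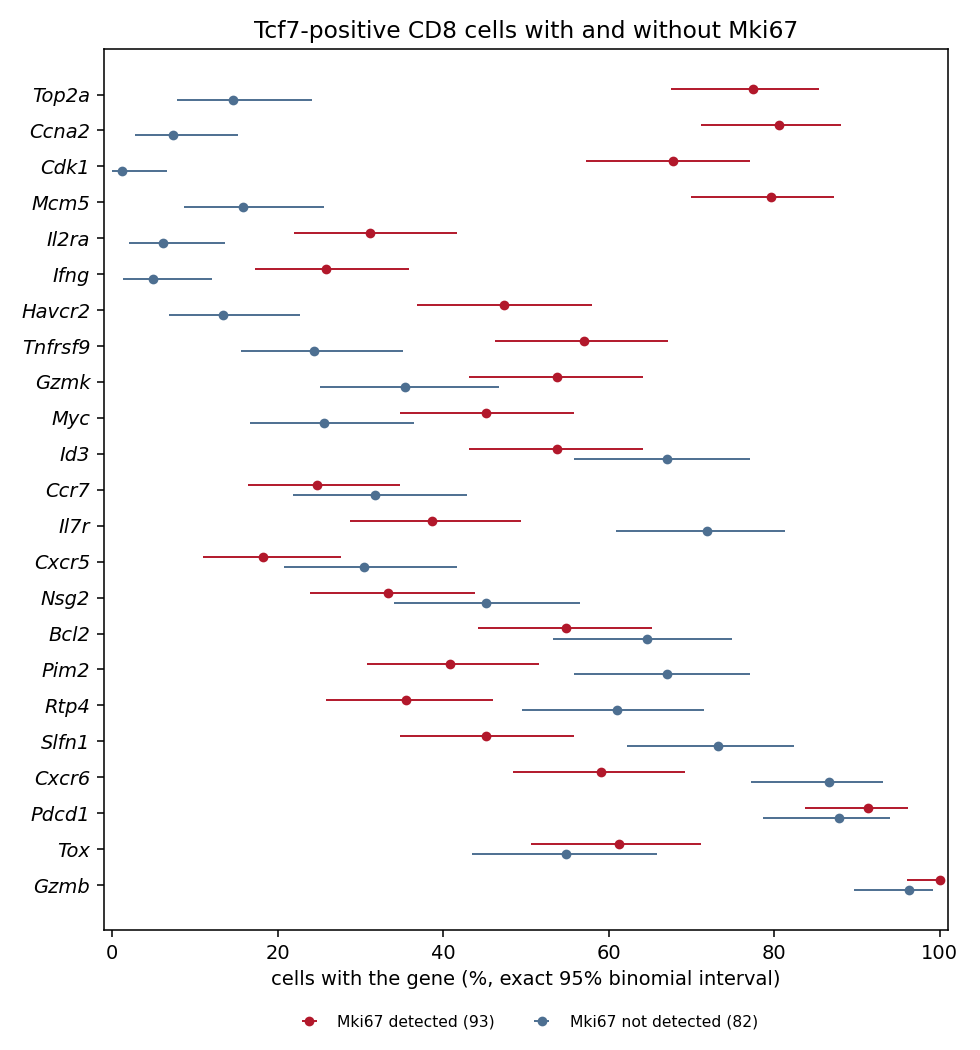
Percentage of cells (x axis) in which each gene (rows) was detected among the 93 Tcf7-positive CD8 cells with Mki67 (red, upper of each pair) and the 82 without it (blue, lower) under anti-IL-2, with exact 95% binomial intervals. Havcr2, Il2ra and Ifng stand to the right in red, Il7r, Slfn1 and Cxcr6 stand to the right in blue, and Pdcd1, Tox and Id3 overlap.

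Other divisions of the 175 cells ran along homing genes. In the 49 with Ccr7, Nsg2 was detected in 63.3%, against 29.4% of the 126 without, Ifit3 in 30.6% against 11.1%, and Bhlhe40 in 16.3% against 44.4%. In the 42 with Cxcr5, P2rx7 was detected in 28.6%, against 8.27% of the 133 without, and Ifit3 in 40.5% against 9.02%, while Ccr7 was detected in 33.3% and 26.3%, with overlapping intervals. In the 45 with Xcl1, Tnfrsf9 was detected in 66.7%, against 33.1% of the 130 without, and Id3 in 62.2% against 59.2%, with overlapping intervals. Id3 itself did not separate the cells in this way: Ccr7 was detected in 33.3% of the 105 with Id3 and 20.0% of the 70 without, with overlapping intervals.

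Among the 15 highest ratios over all genes were also those of Gm14085 (16.0% of Tcf7-positive and 1.33% of Tcf7-negative cells) and Tnfrsf25, the death receptor DR3 (25.1% and 5.80%). Among the 15 lowest were those of Serpine2, a serine protease inhibitor (0.571% and 5.80%), Steap3, a metalloreductase (1.14% and 6.47%), Itgam, which encodes CD11b (2.29% and 11.4%), Lamc1, a laminin chain (5.71% and 27.7%), and Cdkn1a, the cell cycle inhibitor p21 (2.29% and 7.96%). Fcer1g, a signalling adaptor, was detected in 4.0% and 12.4%.

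Tcf7-positive cells with 2 or more markers of B, plasma or erythroid cells were rare. At least 2 of 8 measured B-cell markers were detected in 2.29% of Tcf7-positive and 5.14% of Tcf7-negative cells, at least 2 of 4 plasma cell markers in 0.571% and 3.15%, and at least 2 of 6 erythroid markers in 0.571% and 1.16%. Single markers were more frequent. At least 1 was detected in 12.6% and 21.7% for B cells, 47.4% and 57.0% for plasma cells, and 11.4% and 9.78% for erythroid cells. At least 2 of 10 myeloid markers were detected in 30.3% and 47.6%. Fcer1g and Itgam of that list are among the genes called lower. The part of cells with myeloid markers in those calls was not tested. Some markers of the list were frequent in both kinds of CD8 cell. With the shift removed, Cst3 was detected in 75.1% of Tcf7-positive and 90.8% of Tcf7-negative cells, and Cd68 in 31.7% and 31.9%. Foxp3, Mzb1, S100a8 and Alas2 were detected in 0 of the 175 cells. Pancreatic acinar transcripts moved with Tcf7: at least 1 of 15 was detected in 61.7% of Tcf7-positive and 42.5% of Tcf7-negative cells, chiefly Ctrb1, which encodes chymotrypsinogen (59.4% and 38.1%). At least 2 of the 15 were detected in 8.57% and 3.81%, and 9 of the 15 were detected in 0 of the 175 cells. With the shift removed, Ctrb1 was detected in 39.2% and 23.5%, so its level depended on the reading, and its part in the other results was not tested.

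In the tacrolimus library the same gate gave 1001 CD8 cells, of which 30 were Tcf7-positive (3.0%, 2.03 to 4.25%), against the 22.5% in the anti-IL-2 library. Treatment and library cannot be told apart in this gap. The anti-IL-2 values were integrated and the tacrolimus values were not, so levels are set side by side without comparison. In tacrolimus cells, Id3 was detected in 36.7% of the 30 Tcf7-positive (19.9 to 56.1%) and 2.88% of the 971 Tcf7-negative cells, Ccr7 in 26.7% and 1.24%, and Bcl2 in 53.3% and 16.5%. Thus Id3 and Ccr7 were more frequent in Tcf7-positive cells in either library. Cxcr5 was detected in 0 of the 1001 tacrolimus CD8 cells, Tcf7-positive or not, which allows a share of up to 0.3% (3 counts), so it gives no comparison there. Lamc1 was detected in 26.7% and 30.5%. The median number of genes detected in tacrolimus cells was 439 in Tcf7-positive and 427 in Tcf7-negative CD8 cells. Whether these differences between Tcf7-positive and Tcf7-negative cells differ between the libraries was not tested.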

How the data were processed

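Spleen cells of each treatment were profiled as 1 library with the 10x Genomics 5′ kit, per the labels' protocols. Per the submitters' processing notes, the tools were Cell Ranger 3.1.0 and a Seurat release of unnamed version, with the genome build mm10, while read and cell filters are not given in the sources used here. The authors deposited 2000 genes per cell as natural log values. Under anti-IL-2, 13.9% of the deposited values lay below 0 and 42.0% at exactly 0, as batch integration leaves them, so its differences are integrated differences. The tacrolimus file repeated 308 anti-IL-2 columns, which were used once. The libraries shared 4 barcodes.

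Cells were gated by detection above 0.7, and shares of cells were compared with exact Clopper-Pearson intervals (scipy 1.17.1, pandas 2.3.3, Python 3.11.15). With 1 library per treatment no test was made. The members and lists were chosen with earlier results of these data known, so they are a description. Named genes were the 15 highest and 15 lowest ratios of shares, the 10 largest mean differences each way for genes above 66.7%, and list members, some of which are not reported here. No doublet caller was run, and cells were not thinned to 1 depth, since integrated values are not counts. Cells were weighted by genes detected in bins of 50 as an alternative. The shift was estimated from the 30 nearest cells. The scripts were tested on simulated data.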

Additional observations from a re-analysis of the deposited data

How the results depend on the processing

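No paired analysis was possible because there was 1 library per treatment, and no library could be left out. The alternatives on the shift, a Cd4 value of 0.3 or less, Cd8b1 above 1.5 and intervals apart were chosen after seeing the data. The naive and memory list had 5 to 9 genes called higher, against 7, and the Tcf7-positive share was 19.8 to 23.9%, across the alternatives run on them.

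The 97 higher calls became 174 and 64 with a minimum share of 1% and 10%, 50 with a ratio of 2, 54 with intervals apart and 39 by mean log value. The 168 lower calls became 312 with a minimum share of 1%, 46 with a ratio of 2, 106 with intervals apart, 102 with at least 300 genes, 83 weighted by genes detected, 89 within Mki67-positive cells, 79 with the Cd4 limit and 295 for Tcf7 above 1.5 against at most 0. Of the 11 cell cycle genes called lower, the count was 3 and 18 with detection above 0.5 and 1.0, 20 with Tcf7 above 1.5, 7 with Cd8a also detected, 23 by mean log value, and 0 with 300 genes, weighting, Mki67-positive cells or the Cd4 limit.

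The 2 inhibitory receptors called higher became 1 with detection above 0.5, weighting, Cd8a or the Cd4 limit, and 0 with detection above 1.0, 300 genes, Mki67-positive cells, Tcf7 above 1.5 or mean log values. The 4 cytotoxic genes called lower became 1 within Mki67-positive cells, 2 without cells with other-lineage markers or with the Cd4 limit, and 11 by mean log value. The other-lineage choice left out cells with 2 or more B, myeloid or erythroid markers, some of them frequent in CD8 cells. It kept 95 of the 175 Tcf7-positive and 250 of the 603 Tcf7-negative cells. The 4 IL-2 and STAT5 genes called higher became 2 with detection above 1.0 or Tcf7 above 1.5, and 1 with 300 genes. By mean log value, 3 of the 10 precursor and 6 of the 14 type I interferon genes were called higher.

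For the Mki67 division, log2 ratios were -0.53 for Pim2 and -0.94 for Cxcr6 with the shift removed, -0.63 for Cxcr6 with detection above 1.0, -0.58 for Slfn1, -0.32 for Pim2 and 0.27 for Havcr2 with detection above 0.5, and -0.57 for Pim2 with a division by G2/M genes. Single genes that turned were Cenpe without Mki67 (0.25), Hspa1b by mean log value (-0.059), Ifit1bl1 with 300 genes (-0.30) and with Mki67 (-1.50), Itga1 with detection above 0.5 (0.11) and Tox2 with Tcf7 above 1.5 (-0.065). The cause of these turns was not tested. Fcer1g also turned without other-lineage cells (0.40). It is itself among the markers by which those cells were left out, so this turn cannot be read as a result about Fcer1g. Only genes that pass into the deposited 2000 can be seen, and absence from a cell is limited by its genes detected.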
